A study of Drosophila melanogaster with 6 samples.

Results

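The cytochrome P450 genes of Drosophila melanogaster outside the Cyp6a subfamily were followed in the heads of adult males that had lived alone or in company. Members were the probe sets annotated with exactly 1 gene whose symbol has the P450 form (Cyp, a family number, a subfamily letter and a gene number), leaving out Cyp6a, Cyp4d21 and Cyp4g1. This gave 67 probe sets for 65 genes, out of 13647 probe sets for 11982 genes that carry 1 gene name on the array. The rule reads gene symbols only, but the set was proposed with earlier results of these data known. P450 genes known by mutant names, such as the ecdysone synthesis genes, do not match the symbol form and are treated apart.

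Single-housed males were kept 1 per vial and group-housed males 10 per vial, for 6 days from eclosion. Each sample was total RNA from 20 pooled heads, frozen in the late afternoon, and each condition had 3 Affymetrix arrays that the labels call biological replicates. No genotype, strain or treatment other than housing is given in the labels, and both groups share sex, age and time of collection. A pool averages over its flies, so the spread between arrays is a spread between pools.

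Cytochrome P450s are heme enzymes that insert an oxygen atom into a substrate. Insect P450s fall into 4 clans. The CYP3 clan (Cyp6, Cyp9, Cyp28, Cyp309 and others) and the CYP4 clan (Cyp4, Cyp313 and others) hold many enzymes of xenobiotic and lipid metabolism, the CYP2 clan holds enzymes of hormone metabolism and development, and the mitochondrial clan (Cyp12, Cyp49, Cyp301 and others) works in mitochondria. In the fly head these genes are transcribed in several tissues, among them fat body, glia and sensory organs.

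Signals were intensities, used as log2(intensity + 16) after quantile normalization, and called normalized log2 signals below. Deposited array medians ran from 24.23 to 31.57, correlations between arrays after normalization from 0.972 to 0.989 across probe sets, and no array duplicated another. Of 18769 probe sets, 13138 passed a filter that left out the dimmest 30% and were tested with limma. All differences are single-housed minus group-housed on the log2 scale, with the standard error (SE) of the fit, n = 3 arrays per group and 2-sided tests. Values of different probe sets depend on their probes, so signals are not ranked between genes, and the table carries no detection calls.

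Most of the P450 genes gave a head signal above the filter, and their signals spread over most of the range of the array, which ran from 4.04 to 13.29. Of the 67 probe sets, 62 passed the filter at a normalized log2 signal of 4.69, and member means ran from 4.32 to 12.48 with a median of 6.57. The median over all 18769 probe sets was 5.46. The 5 probe sets below the filter were Cyp303a1, known for bristle development, at 4.32, Cyp310a1, known in wing development, at 4.51, and Cyp313a2, Cyp313a5 and Cyp316a1 at 4.52, 4.47 and 4.55. For these no difference was tested, and their untested differences were 0.19, 0.03, -0.30, -0.17 and 0.15, with overlapping groups in every case.

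Head signals are given by family as values of single probe sets. All 20 Cyp4 probe sets were tested, with means from 5.11 (Cyp4d14) to 11.05 (Cyp4e2), and Cyp4p1 was at 10.43. The 10 Cyp6 probe sets ran from 6.16 (Cyp6v1) to 11.83 (Cyp6w1), and Cyp6g1, the gene of DDT and neonicotinoid resistance, was at 11.67. The 5 Cyp9 probe sets ran from 6.20 (Cyp9c1) to 10.45 (Cyp9f2), with Cyp9b2 at 9.85. The 6 Cyp12 probe sets ran from 6.51 (Cyp12a5) to 9.39 (Cyp12a4), a gene known from lufenuron resistance. In the Cyp28 family, whose members in cactus-breeding Drosophila are induced by plant alkaloids, the 4 probe sets split into Cyp28d1 and Cyp28a5 at 11.59 and 10.10 and Cyp28d2 and Cyp28c1 at 5.95 and 5.66. Cyp309a1 and Cyp309a2 were at 8.0 and 7.53. Among the other families 15 of 20 probe sets passed, with Cyp313a1 at 12.48, while the other 5 Cyp313 probe sets lay between 4.47 and 5.34.

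**Figure D1:**
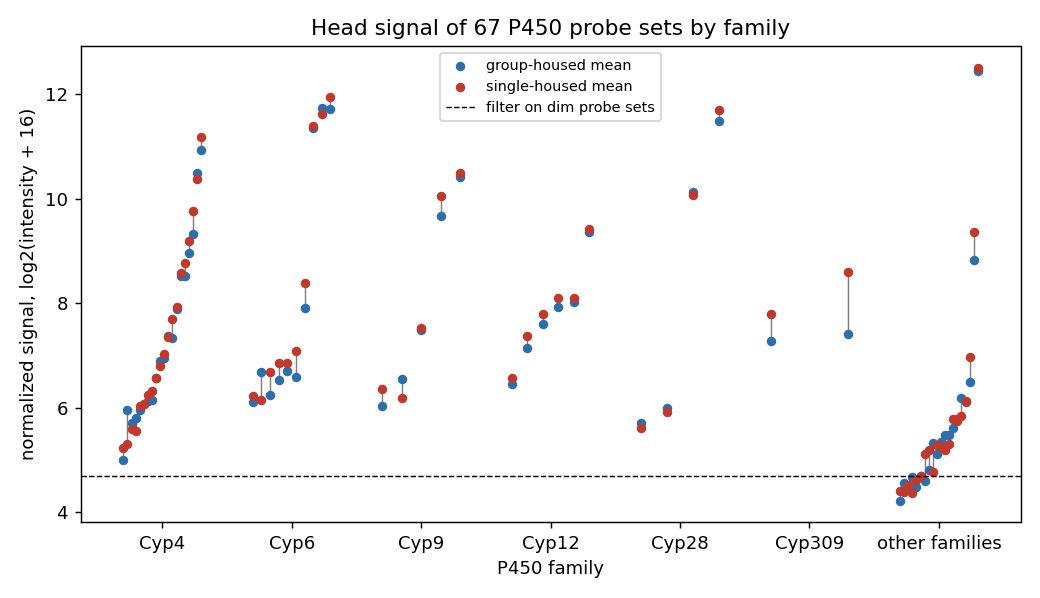
Mean normalized log2 signal of the 67 P450 probe sets in group-housed (blue) and single-housed (red) heads, n = 3 arrays each, arranged by family on the x axis and joined by a grey line per probe set, with the filter at 4.69 dashed. The means run from 4.32 to 12.48, the 5 probe sets whose mean over all arrays lies below the line belong to the other families, and the widest gap between the groups is that of Cyp309a1.

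Small differences toward single-housed heads prevailed in number, yet no P450 gene passed the threshold. At an adjusted p of 0.05 over all 13138 probe sets, limma called 0 of the 62 members (16 at unadjusted p 0.05), where 0.0152% of all probe sets tested were called. At unadjusted p 0.05, 13 members had a higher signal in single-housed heads, 21.0% of those tested against 4.57% of all probe sets, and 3 had a lower one, 4.84% against 3.67%. The 13 include Cyp301a1, whose group-housed mean lay below the filter and which passed through its single-housed arrays, so 12 remain without it. The smallest adjusted p among the members was 0.338, for Cyp4p2. Of the 62, 42 had a difference above 0 (67.7%, against 45.3% of all probe sets tested), and the median was 0.09 against -0.02. Over all 67 members, filter or not, 45 were above 0 and the median was 0.08.

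The arrays of the groups did not overlap, with single-housed above, for 13 members (21.0%, against 6.23% of all probe sets tested). With single-housed below, this held for 4 (6.45%, against 7.95%). The exact permutation test of 3 arrays against 3 cannot go below p = 0.1, which is what each of these members reaches. The members' median exceeded that of all probe sets by 0.11 after quantile normalization, with the deposited scaling and after median centring. The last 2 scalings differ by 1 constant for every probe set, so their gap is the same by construction. The medians themselves moved with the scaling, from 0.09 to 0.21 and 0.12 for the members and from -0.02 to 0.10 and 0.01 for all probe sets. Signs changed between the scalings for 9 members, all with a difference within 0.13 of 0 after quantile normalization.

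The lean lay above 0 on all 3 single-housed arrays, and on group-housed replicate 2 the members lay near the value of all probe sets. Set against each member's own mean over the 6 arrays, the median deviation was 0.03, 0.07 and 0.09 on single-housed replicates 1, 2 and 3. On group-housed replicates 1 and 3 it was -0.07 and -0.06, and on group-housed replicate 2 it was 0.01, near single-housed replicate 1. Over all probe sets tested, the same median was 0.003, -0.004 and -0.009 on single-housed replicates 1, 2 and 3. It was 0.008, 0.01 and 0.012 on the group-housed ones. Members above their own mean numbered 36, 39 and 43 of 62 on the single-housed arrays and 22, 32 and 22 on the group-housed arrays. Group-housed replicate 2 was the highest of the 3 group-housed arrays for 31 of the 62 members (33.4% over all probe sets tested). It was also highest for 10 of the 13 with a higher single-housed signal at unadjusted p 0.05. Without it, 17 members were higher at unadjusted p 0.05 (27.4%, against 6.03% of all probe sets tested) and 4 lower (6.45% against 4.29%). After adjustment 1 member (Cyp309a1) was called, among 47 probe sets in all. Without group-housed replicate 1 the members' median was 0.06, and without single-housed replicate 2 the count of higher members was 8 (12.9%, against 2.57% of all probe sets tested).

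**Figure D2:**
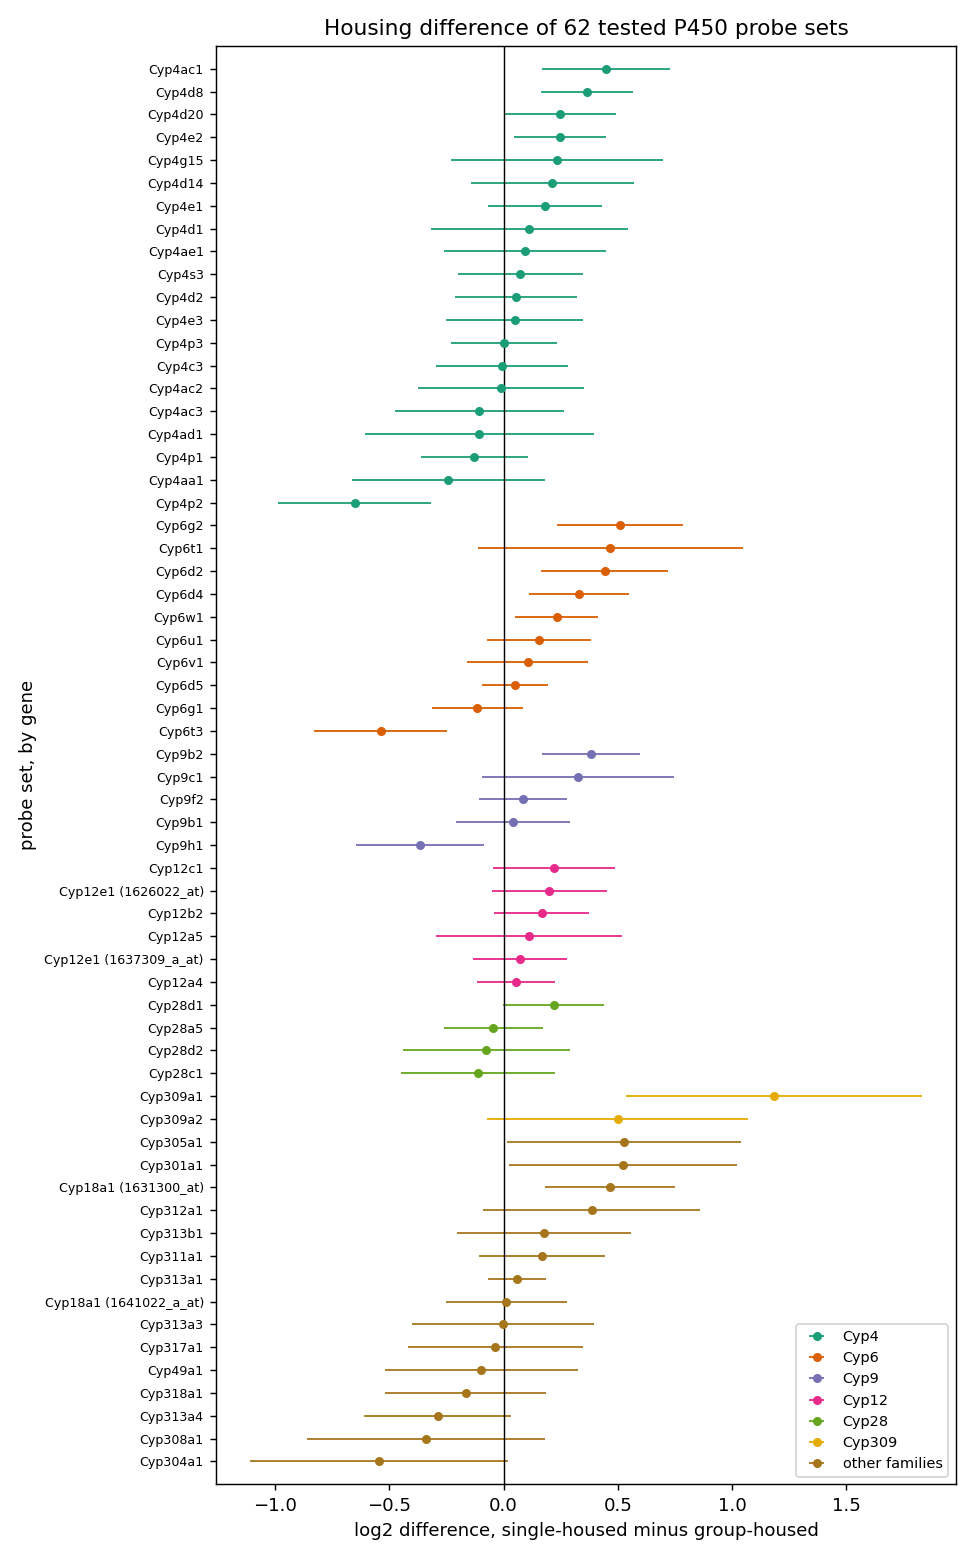
Log2 difference (single-housed minus group-housed) of the 62 tested P450 probe sets on the x axis, with 95% intervals of the limma fit, grouped by family on the y axis and coloured by it. After quantile normalization 42 points lie right of 0, 16 intervals leave 0 out before adjustment, and 9 points near 0 change sign under another scaling.

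Cyp309a1 showed the widest housing difference of the family. It belongs to the CYP3 clan, and its substrate is not stated here. Its normalized log2 signals were 8.53, 8.77 and 8.49 on the single-housed arrays and 6.92, 8.19 and 7.13 on the group-housed arrays. All single-housed arrays lay above all group-housed arrays, and group-housed replicate 2 stood more than 1 log2 unit above the other group-housed arrays. The deposited intensities were 403.7, 462.3 and 317.1 against 102.7, 238.8 and 125.2. The difference was 1.18 (SE 0.29, 95% interval 0.54 to 1.83), a 2.27-fold higher signal, with a limma adjusted p of 0.36. Without group-housed replicate 2 it was 1.58 with a limma adjusted p of 0.00775, and with the deposited scaling the adjusted p was 0.00848.

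Cyp309a2, the gene beside it, had the same order of arrays within the group-housed set. Its signals were 7.58, 8.17 and 7.60 on the single-housed arrays and 6.93, 7.86 and 7.06 on the group-housed arrays, so the groups overlapped through group-housed replicate 2. Its difference was 0.50 (SE 0.25, adjusted p 0.648), and 0.80 without that array. With single-housed replicate 2 left out it was 0.31, and with group-housed replicate 1 left out it was 0.32. The CYP3 member Cyp6t1 ran alike, with 8.17, 8.64 and 8.31 against 7.69, 8.56 and 7.47. Its difference was 0.47 (SE 0.26, adjusted p 0.676), and it was 0.80 when group-housed replicate 2 was dropped and 0.25 when group-housed replicate 3 was dropped. Cyp309a1, Cyp6t1 and Cyp309a2 had the highest residual SDs of the family, 0.50, 0.44 and 0.43, where the median was 0.15 for the members and 0.16 for all probe sets.

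Some transcripts of the head fat body, a tissue known for P450 expression, also had higher values in single-housed heads. Among the group-housed arrays the sum over the whole marker list was highest on replicate 2. Of 19 symbols listed as fat body markers, 15 were matched to probe sets and 13 were tested. At unadjusted p 0.05, 6 of these were higher and 0 lower in single-housed heads. The shares over all probe sets tested were 4.57% and 3.67%. Fbp2, 1 of the 6, had a group-housed mean of 4.49, below the filter, and passed through its single-housed arrays. The list was not checked for specificity to the fat body, and mag, another of the 6, was at 0.42. The median difference of the 13 was 0.06, with 7 above 0 after quantile normalization (10 with the deposited scaling). The other 6 lay below 0, among them the yolk protein genes Yp1 and Yp2 at -0.58 and -0.47 and the lipase gene bmm at -0.26. The summed normalized intensity of all 15 probe sets ran from 27061 to 29325 in single-housed and from 17151 to 23938 in group-housed heads. Most of this sum came from apolpp, Obp99b and Lsp2. Of these, apolpp had the highest mean, 12.83, and differed by 0.06 with overlap. Lsd-2 and CG14400, among those below 0, were at -0.03 and -0.07. The secreted peptide gene fit read 11.06, 11.22 and 11.27 against 9.87, 10.55 and 8.97, and Obp99b, an odorant binding protein gene on the list, read 12.81, 12.93 and 12.96 against 11.79, 12.36 and 12.25. The storage protein gene Lsp2 read 12.75, 12.81 and 12.80 against 11.64, 12.57 and 9.25. Fbp1 and tsg lay below the filter. The part of these levels in the P450 differences was not tested, and in pooled heads fewer cells of a type and less RNA per cell cannot be told apart.

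Markers of other tissues were read the same way. Of the 8 gut probe sets 4 were higher and 0 lower at unadjusted p 0.05, beside 4.57% and 3.67% of all probe sets tested. The summed intensity was 815 to 2880 in single-housed and 127 to 1239 in group-housed heads. Group-housed replicate 2 had the lowest gut sum of all arrays, 127. Of 8 probe sets for Malpighian tubule markers 4 lay below the filter, with sums of 661 to 674 against 634 to 658. Most of this sum came from 1 gene, Best2, at 8.93. Sums of the 5 eye and nervous tissue probe sets, 4723 to 5460 against 5016 to 5447, overlapped, and all 5 of them, among them the photoreceptor channel gene trp at 11.67 and the neuronal gene elav at 9.65, were above the filter. The 4 oenocyte probe sets summed to 4702 to 4915 against 4373 to 5550, nearly all of it from Desat1 at 12.21. The part of the gut signal in the P450 differences was not tested.

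In the Cyp4 family, 13 of 20 probe sets had a difference above 0 after quantile normalization, with a median of 0.06, and 17 with the deposited scaling. At unadjusted p 0.05, 4 were higher and 1 lower, beside 4.57% and 3.67% of all probe sets tested. Cyp4ac1 read 9.64, 9.83 and 9.85 on the single-housed arrays and 9.11, 9.59 and 9.27 on the group-housed arrays. No group-housed array reached the single-housed ones, and the difference was 0.45 (SE 0.12, 1.37-fold, limma adjusted p 0.434). Cyp4d8 was tighter, with 7.74, 7.72 and 7.63 against 7.31, 7.41 and 7.27. Its groups were also apart, and the difference was 0.37 (SE 0.088, 1.29-fold, limma adjusted p 0.36). Cyp4e2 read 11.08, 11.18 and 11.26 against 10.88, 11.09 and 10.81, which overlap. It was at 0.25 (SE 0.089), and at 0.46 with the deposited scaling. Cyp4d20 was at 0.25 (SE 0.11), and at 0.39 with the deposited scaling.

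Cyp4p2 went the other way and had the smallest p of all the members. Its signals were 5.50, 5.08 and 5.34 on the single-housed arrays and 5.82, 6.01 and 6.04 on the group-housed arrays. Every single-housed array lay below every group-housed array. The difference was -0.65 (SE 0.15, 95% interval -0.99 to -0.32), a 1.57-fold lower signal with a limma adjusted p of 0.338. The probe set is dim, with deposited intensities of 17.3 to 52.3, and with a pseudocount of 64 the difference was -0.33. Cyp4aa1 was at -0.24 (SE 0.19). Among Cyp4 members with known settings in the fly, Cyp4g15, expressed in the nervous system, was at 0.23 with an interval from -0.23 to 0.70. Its 6 arrays ran from 8.64 to 9.45, with overlap. Cyp4e3, tied to permethrin tolerance, was at 0.05 (interval -0.25 to 0.35).

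The Cyp6 family outside Cyp6a held differences on both sides. Of its 10 probe sets 8 were above 0 after quantile normalization, with a median of 0.19, and 9 with the other scalings. After quantile normalization 4 were higher and 1 lower at unadjusted p 0.05, beside 4.57% and 3.67% of all probe sets tested. Cyp6g2, which confers insecticide resistance when overexpressed and is known from the corpora allata, read 7.26, 6.87 and 7.14 on the single-housed arrays and 6.51, 6.67 and 6.56 on the group-housed arrays. The groups were apart, with a difference of 0.51 (SE 0.12, 1.42-fold, limma adjusted p 0.36). Cyp6d2, known from resistance to camptothecin, read 6.55, 6.87 and 6.65 against 6.12, 6.37 and 6.26. It was at 0.44 (SE 0.12, limma adjusted p 0.438), or 0.29 with a pseudocount of 64. Cyp6d4 read 6.83, 6.83 and 6.93 against 6.46, 6.61 and 6.53, again without overlap. Its difference was 0.33 (SE 0.097, limma adjusted p 0.456).

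Cyp6w1, whose product metabolizes DDT, read 11.85, 12.05 and 11.96 against 11.61, 11.70 and 11.85. The highest group-housed array was level with the lowest single-housed one. The difference was 0.23 (SE 0.081, limma adjusted p 0.519), and 0.43 with the deposited scaling. Cyp6t3, a gene of ecdysone synthesis in the larval prothoracic gland, lay on the other side. It read 6.14, 6.04 and 6.27 on the single-housed arrays and 6.75, 6.84 and 6.47 on the group-housed arrays. The groups were apart, with a difference of -0.54 (SE 0.13, 1.45-fold lower, limma adjusted p 0.36), and -0.35 with a pseudocount of 64. Cyp6d5 was at 0.05 (interval -0.09 to 0.19) after quantile normalization, and at 0.26 and 0.18 with the deposited scaling and median centring. Cyp6g1 was at -0.11 (interval -0.32 to 0.09), or 0.10 and 0.01 with the deposited scaling and median centring.

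In Cyp9, 4 of 5 probe sets were above 0 under every scaling. After quantile normalization 1 was higher and 1 lower at unadjusted p 0.05, beside 4.57% and 3.67% of all probe sets tested. Cyp9b2 read 10.06, 9.99 and 10.08 on the single-housed arrays and 9.49, 9.84 and 9.66 on the group-housed arrays. The single-housed arrays lay close together above all the group-housed ones, and the difference was 0.38 (SE 0.095, 1.30-fold, limma adjusted p 0.379). Cyp9h1 read 6.07, 6.31 and 6.16 against 6.37, 6.70 and 6.56. Here single-housed lay below, at -0.37 (SE 0.12, 1.29-fold lower, limma adjusted p 0.505), or -0.23 with a pseudocount of 64. Cyp9f2 was at 0.08 (interval -0.11 to 0.28), and Cyp9c1 at 0.33 (interval -0.09 to 0.75).

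All 6 probe sets of the mitochondrial Cyp12 family had small differences above 0 under every scaling, from 0.05 to 0.22 after quantile normalization, and none reached unadjusted p 0.05 there. With the deposited scaling, Cyp12c1 (0.35, limma unadjusted p 0.040) and 1 probe set of Cyp12e1 (0.34, limma unadjusted p 0.041) did. After quantile normalization Cyp12c1 was at 0.22 (SE 0.12) and Cyp12b2 at 0.17 (SE 0.091), the only probe set of this family whose groups did not overlap. Cyp12e1 had a pair of probe sets, at 0.20 (SE 0.11) and 0.07 (SE 0.090). Cyp12a4 and Cyp12a5 were at 0.05 and 0.11. The Cyp28 family had no member at unadjusted p 0.05 after quantile normalization, with 1 of 4 above 0 after quantile normalization, 3 with the deposited scaling and 2 after median centring. Cyp28d1, linked to nicotine metabolism, read 11.56, 11.80 and 11.73 on the single-housed arrays and 11.29, 11.56 and 11.59 on the group-housed arrays, which overlap. It was at 0.22 (SE 0.096, limma unadjusted p 0.050). With the deposited scaling it was at 0.42 (limma unadjusted p 0.0046), and after median centring at 0.34 (limma unadjusted p 0.023). After quantile normalization Cyp28a5, Cyp28c1 and Cyp28d2 were at -0.04, -0.11 and -0.08.

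**Figure D3:**
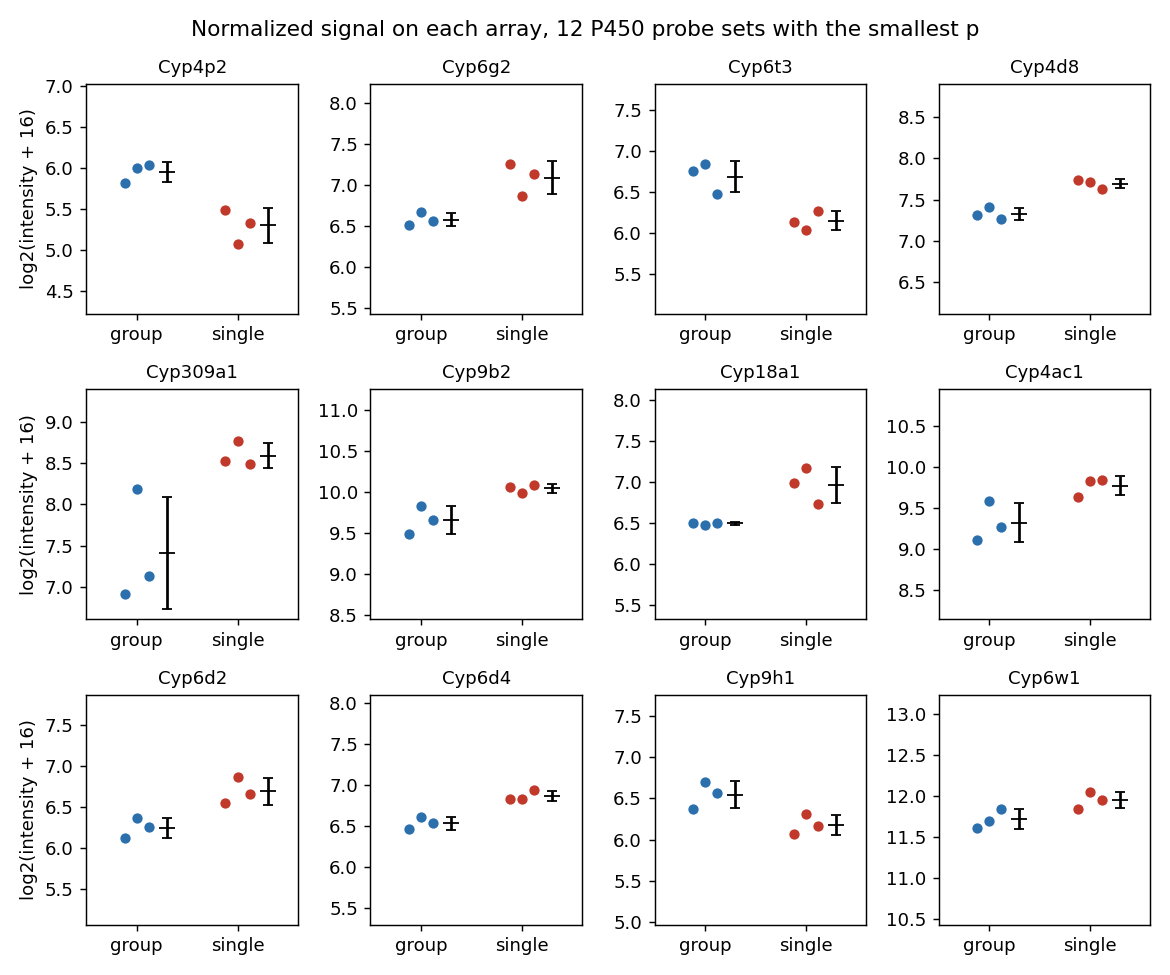
Normalized log2 signal on each array for the 12 P450 probe sets with the smallest p, group-housed in blue and single-housed in red (x axis), with black bars for the mean and SD of 3 arrays; all panels span the same number of log2 units. In 11 of the 12 panels the groups do not overlap, which choosing panels by p on these same arrays favours. Over all probe sets tested, single-housed lay above without overlap for 6.23% and below for 7.95%. For Cyp6w1 the groups meet, and for Cyp309a1 1 group-housed array lies far above the other group-housed arrays.

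Among the remaining families, a member of the CYP2 clan differed between its own probe sets. Cyp18a1, the enzyme that inactivates ecdysteroids by 26-hydroxylation, was measured by a pair of probe sets. The first read 6.99, 7.17 and 6.72 on the single-housed arrays and 6.50, 6.48 and 6.50 on the group-housed arrays, without overlap, with a difference of 0.47 (SE 0.12, 1.38-fold, limma adjusted p 0.431). The second read 6.15, 6.13 and 6.10 against 6.02, 6.29 and 6.03, with overlap and a difference of 0.01 (interval -0.25 to 0.28). Whether they report different transcripts cannot be read from the annotation used. Cyp305a1 was at 0.53 (SE 0.23), with 9.46, 9.49 and 9.11 against 9.07, 9.17 and 8.25. Its difference was 0.24 without group-housed replicate 3, the lowest array. Cyp304a1 was at -0.55 (SE 0.25), close to the filter, with overlap.

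Cyp313a1 had the narrowest interval of the tested members after quantile normalization, at 0.06 (-0.07 to 0.19). It was at 0.24 with the deposited scaling (limma unadjusted p 0.045) and at 0.16 after median centring. Cyp301a1, known in cuticle formation, was at 0.52 (SE 0.22) with overlap. Its group-housed mean of 4.59 lay below the filter, so it passed through its single-housed arrays, and the difference was 1.17 and 0.20 with pseudocounts of 1 and 64. Cyp313a4 lay lower on every single-housed array, at -0.29 (SE 0.14), and Cyp311a1, known from the midgut epithelium, higher, at 0.17 (SE 0.12). Cyp308a1, Cyp312a1 and Cyp318a1 were at -0.34, 0.39 and -0.17, all with overlap. The half-width of the 95% interval had a median of 0.28 over the tested members and ran from 0.13 to 0.65, so differences below these sizes could not be resolved with 3 arrays per group.

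Seen by clan, differences above 0 were counted for 3 of 4 probe sets of the CYP2 clan, 15 of 23 of CYP3, 17 of 27 of CYP4 and 7 of 8 of the mitochondrial clan, with medians of 0.24, 0.11, 0.06 and 0.14 after quantile normalization. With the deposited scaling the counts were 3, 19, 22 and 7. No difference between the clans was tested. In the Cyp6a subfamily, 9 of 11 tested probe sets were above 0 with a median of 0.10. At unadjusted p 0.05, 2 of them were higher and 1 lower, beside 4.57% and 3.67% of all probe sets tested.

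Many P450 genes lie beside each other in the genome. After quantile normalization, neighbours differed in the sign of their values about as often as not. Gene order was taken from the Release 6 gene table, in which all 65 genes were found. Counting genes that are adjacent or have 1 protein-coding gene between them, 32 genes formed 25 pairs. Of the 21 pairs with both genes tested 10 had differences of the same sign after quantile normalization. Genes in longer runs enter more than 1 pair, so the pairs are not independent. In the run Cyp6g1, Cyp6g2 and Cyp6t3 the differences were -0.11, 0.51 and -0.54, so the adjacent genes Cyp6g2 and Cyp6t3 lay on opposite sides under every scaling, each with groups that did not overlap. In the run Cyp4p2, Cyp4p1 and Cyp4p3 they were -0.65, -0.13 and 0.00, and in the run Cyp4ac1, Cyp4ac2 and Cyp4ac3 they were 0.45, -0.01 and -0.11. Of these, Cyp6g1, Cyp4p1, Cyp4ac2 and Cyp4ac3 changed sign with the deposited scaling, as did Cyp28d2. The count of pairs with the same sign therefore moves with the scaling. The pairs Cyp9b1 and Cyp9b2 (0.04 and 0.38) and Cyp309a1 and Cyp309a2 (1.18 and 0.50) lay on the same side. Probes of near-identical neighbours could share signal, and probe sequences were not used here.

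**Figure D4:**
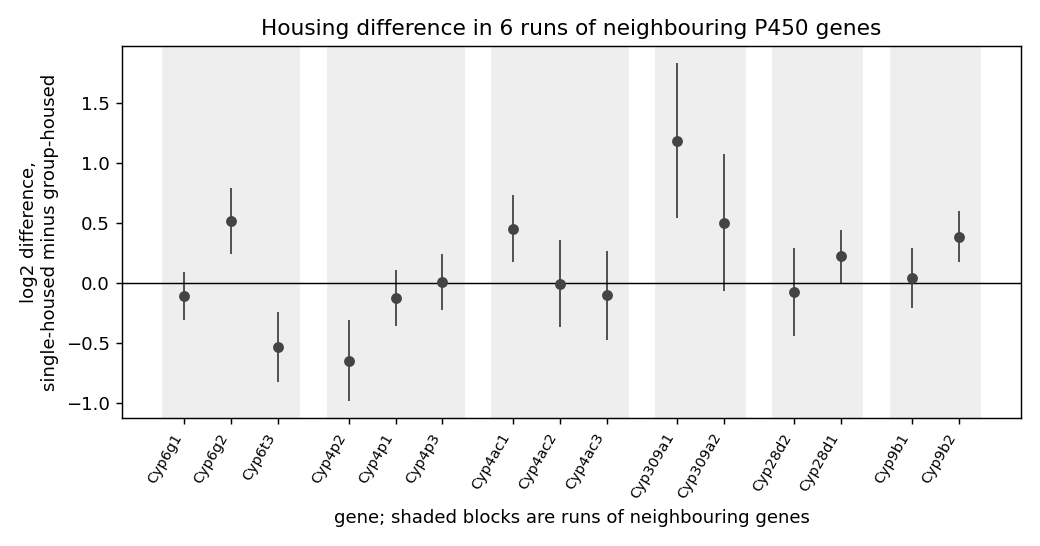
Log2 difference (single-housed minus group-housed, y axis) with 95% intervals of the limma fit for 6 runs of neighbouring P450 genes, in gene order within each shaded block. Cyp6g2 at 0.51 and Cyp6t3 at -0.54 stand on opposite sides of 0 next to each other; Cyp6g1, Cyp4p1, Cyp4ac2, Cyp4ac3 and Cyp28d2, within 0.13 of 0, change sign with the deposited scaling.

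Some of the partners that P450s need were read from separate lists. Of 10 electron donor symbols 7 matched the array. The symbols Cpr, dare and Fdxh did not, so the reductase genes Cpr and dare were not covered. Of the matched genes 6 probe sets were tested and 0 of them reached unadjusted p 0.05. Under quantile normalization 5 were above 0, with a median of 0.10. Cyt-b5, the cytochrome that passes electrons to microsomal P450s, was at 0.11 (SE 0.053) without overlap, and the b5-like gene CG3566 at 0.20. The mitochondrial ferredoxin genes Fdx1 and Fdx2 were at -0.19 and 0.11. Of 11 symbols and synonyms for heme synthesis 7 matched. Of their 8 tested probe sets in this pathway, which supplies the P450 cofactor, 7 were above 0 with a median of 0.20. At unadjusted p 0.05, 0 were lower (3.67% of all probe sets tested) and 1 was higher (4.57%). This was Uros1, of the uroporphyrinogen step, at 0.36, with 6.09, 6.12 and 6.16 against 5.64, 6.10 and 5.55. Alas, the first enzyme of the pathway, was at -0.13 and lower on every single-housed array.

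Regulators of xenobiotic responses had differences on both sides of 0. All 13 genes matched, and of 17 tested probe sets 8 were above 0 after quantile normalization and 10 with the deposited scaling. At unadjusted p 0.05, 1 was higher and 2 lower, beside 4.57% and 3.67% of all probe sets tested. The groups did not overlap for 4, all with single-housed below (7.95% of all probe sets tested). With single-housed above, this held for 0 (6.23%). The small Maf gene maf-S, the partner of the Nrf2 homologue cnc, was lower, with 10.34, 10.31 and 10.26 on the single-housed arrays and 10.68, 10.45 and 10.61 on the group-housed arrays, at -0.27 (SE 0.077, limma adjusted p 0.441). The 2 probe sets of cnc itself were at 0.26 and -0.35, the second close to the filter with a mean of 5.00. Hr38, a nuclear receptor gene, had a pair of probe sets at -0.37 and -0.16. Of the 2 tested probe sets of svp, another nuclear receptor gene, 1 was at 0.30 and 1 at -0.16, and the juvenile hormone receptor gene Met was at 0.40 (SE 0.19). The ecdysone synthesis P450s with mutant names were dim, with means from 4.19 to 5.34, and none of the 5 tested probe sets reached unadjusted p 0.05.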

How the data were processed

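The authors' deposited table holds linear signal intensities of each probe set on the 6 arrays. Per the labels, biotin labelling followed the standard Affymetrix procedure. How probes were summarised, background-corrected and scaled is not given in the sources used here. From these values 183 control probe sets were removed, log2(intensity + 16) was taken and quantile normalized, and the dimmest 30% of probe sets, by their mean signal on the 6 arrays, were dropped. limma 3.58.1 in R 4.3.3 (lmFit, eBayes with an intensity trend) was fitted to the 13138 others, with Benjamini-Hochberg adjustment over all of them and a threshold of 0.05. The fit was tested on simulated data. Names came from the platform annotation and were checked by gene ID against the Release 6 gene table (13544 of 13647 matched). No sequences were used, and gene positions served only to find which genes are neighbours.

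Any member could be named, with the value on each array for the 12 with the smallest p. Some other members' arrays, those of Cyp309a2, Cyp6t1, Cyp28d1, Cyp4e2 and Cyp305a1, the second probe set of Cyp18a1 and the fat body marker Lsp2, were added after their values were seen. The members and lists were chosen with earlier results of these data known. Summed marker levels are normalized intensities with the 16 taken off again. Arrays number 3 per group, which limits the precision. Alternatives covered scaling, pseudocount, filter, variance trend, replicate block, each array left out and 1 probe set per gene. Deviations from the group means of same-numbered arrays correlated at 0.032, 0.114 and 0.329, so the numbers were not taken as pairs.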

Additional observations from a re-analysis of the deposited data

How the results depend on the processing

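The median P450 difference stayed above 0 in all 15 alternatives run, and was 0.21 with the deposited scaling, where the median of all probe sets also rose. No member changed sign among the 16 at unadjusted p 0.05. The count of P450 probe sets called after adjustment was 1 with the deposited scaling and 0 to 1 with 1 array left out, and in each case the gene was Cyp309a1. The count higher at unadjusted p 0.05 was 20 with the deposited scaling (32.3%, against 7.63% of all probe sets) and 8 to 17 with 1 array left out (12.9% to 27.4%, against 2.57% to 6.03%). Without the trend 9 were higher (14.5%, against 4.16%). With the replicate block 17 were higher (27.4%, against 6.07%) and 4 lower (6.45%, against 5.11%). Among these 17 were Cyp12c1 and Cyp28d1 (limma unadjusted p 0.042 and 0.0053), which did not reach unadjusted p 0.05 in the main fit. The count of all probe sets called was 78 with the deposited scaling, 11 after median centring, 1 each with a pseudocount of 64, with no filter and with the dimmest 50% left out, 0 without the trend (985 at unadjusted p 0.05), and 0 to 47 with 1 array left out. The cause was not tested. With the replicate block the count of all probe sets called was 32, none of them a member, and not every array correlated best with its own number. Of 223 repeats over those 16 members, 221 kept direction and side of the threshold and 2, both for Cyp309a1, passed it. Dim members such as Cyp4p2 and Cyp301a1 depend most on the pseudocount, since an added constant weighs more on a small intensity. With pseudocounts of 1 and 64, Cyp4p2 was at -0.95 and -0.33, and Cyp301a1 at 1.17 and 0.20.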
